A study of Mus musculus with 4 samples.

Results

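The genes described here are 50 genes of the cell cycle and DNA replication. They are a list of symbols grouped by known function. The list was drawn up with earlier results of these data known, so its counts against all genes describe it and are not independent evidence. Only probe sets carrying that single symbol were used, and the brightest of them on average stood for the gene. In this way 49 of the 50 were found among the 18194 genes that the array names. Ccnb1 has no probe set listed under its symbol alone and has no array values here. Its promoter window was searched, and it counts there as a mitosis gene. The 49 genes were divided by role into 22 that act in DNA replication or its onset, 23 that act in mitosis, and 4 inhibitors or inhibitor-like genes. A gene counted as measured above background when its mean log2 value over the arrays was at least 6, the floor. This held for 47 of the 49 and for 11425 of all genes. Tyms, at 4.06 to 4.64, and Ndc80, at 5.53 to 6.37, lay below it.

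Colon mucosa was scraped from 129S6/SvEv mice aged 5 weeks, and total RNA was hybridised to an Affymetrix mouse array of 45101 probe sets. All animals carried floxed Vhl. VhlF/F mice kept the gene, VhlΔIE mice lacked it in the intestine only, and VhlF/F/Apcmin/+ and VhlΔIE/Apcmin/+ mice in addition carried 1 copy of the Min allele of Apc, an intestinal tumour model. The text of the series names 4, 3, 3 and 5 mice of these genotypes, in the order VhlF/F, VhlΔIE, VhlF/F/Apcmin/+ and VhlΔIE/Apcmin/+. Each genotype has 1 array, whether RNA was pooled is not given in the sources used here, and the labels name no Cre driver. With no replicates there is no error and no p-value for any value below, and every difference compares 1 array with 1 other array. Scraped mucosa is a mixture, so more dividing cells and more RNA of these genes per dividing cell cannot be told apart.

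A cell that divides first copies its DNA and then separates the copies. In G1 the MCM helicase is loaded on replication origins by Cdc6 and Cdt1, cyclin E with Cdk2 and the transcription factor E2F start S phase, and the helicase then opens the DNA for the polymerases. Genes for this phase are typically E2F targets. Genes for mitosis come on later, in G2, largely through promoter elements called CHR and CCAAT box, which bind the MuvB complexes and NF-Y. In the colon, division is confined to the lower crypt, where Wnt signalling keeps stem and transit-amplifying cells cycling. Vhl targets hypoxia-inducible factors (HIF) for degradation, and Apc restrains the Wnt effector beta-catenin.

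The 2 promoter classes could be read in the sequences of these genes. RefSeq promoter windows of GRCm38.p6, from 250 bases before the annotated start of the gene to 50 after it, were found for 42 of the 50 genes. They were searched on both strands for 4 spellings of the E2F site (TTTGGCGC, TTTCCCGC, TTTGCCGC or TTTCGCGC), for the CHR (TTTGAA or TTCGAA), for CCAAT, and for the core of the hypoxia response element (ACGTG or GCGTG). Matches of 1 motif may overlap each other, and TTCGAA reads the same on both strands. Of 17 replication genes with a window, 8 (47.1%) held an E2F site, against 433 of 9234 genes above the floor (4.69%). Among the 21 mitosis genes it was Cdk1 alone (4.76%). A CHR was present for 15 of 21 mitosis genes (71.4%), for 2 of 17 replication genes, Mcm2 and Mcm7 (11.8%), and for 16.2% of genes above the floor. CCAAT was present for 76.2% of mitosis genes, 64.7% of replication genes and 42.1% of genes above the floor. The hypoxia response core was about as common in all of them, at 66.7% of mitosis genes, 64.7% of replication genes and 67.7% of genes above the floor. A match is a run of letters and not evidence of binding.

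Stretches before the start of 3 replication genes and 4 mitosis genes are shown, because they hold the elements by which the 2 classes differ. Each runs 5′ to 3′ along the gene's strand and ends at the base before the RefSeq start. E2F sites and CHRs, on either strand, are in capitals. They lie at chr8:75109349-75109508 (Mcm5, plus strand), chr1:128359706-128359865 (Mcm6, minus), chr11:98907991-98908150 (Cdc6, plus), chr10:69352913-69353072 (Cdk1, minus), chr11:99024190-99024349 (Top2a, minus), chr2:164769769-164769928 (Ube2c, plus) and chr19:37376222-37376381 (Kif11, plus) of GRCm38.p6. The last 2 lines are the CHRs of Bub1, at chr2:127831828-127831857, and Kif23, at chr9:61946780-61946809, both on the minus strand, each with 12 bases on either side. These 2 had the largest Vhl differences of the 49 genes, and their CHRs lie just past the start. Which promoters to show was chosen after motif positions and array values had been seen.
Mcm5: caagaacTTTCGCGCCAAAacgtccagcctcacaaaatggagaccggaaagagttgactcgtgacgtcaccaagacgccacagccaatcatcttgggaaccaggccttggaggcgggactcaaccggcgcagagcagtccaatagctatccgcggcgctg
Mcm6: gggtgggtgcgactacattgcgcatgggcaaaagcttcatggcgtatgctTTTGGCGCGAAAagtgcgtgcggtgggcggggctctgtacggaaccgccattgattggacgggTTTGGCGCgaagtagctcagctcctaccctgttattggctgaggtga
Cdc6: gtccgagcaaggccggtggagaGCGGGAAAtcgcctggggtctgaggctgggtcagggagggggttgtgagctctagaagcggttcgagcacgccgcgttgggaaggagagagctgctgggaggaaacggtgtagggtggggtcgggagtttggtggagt
Cdk1: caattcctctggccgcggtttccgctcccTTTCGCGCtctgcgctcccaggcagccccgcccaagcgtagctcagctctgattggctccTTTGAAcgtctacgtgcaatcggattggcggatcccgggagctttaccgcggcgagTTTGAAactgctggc
Top2a: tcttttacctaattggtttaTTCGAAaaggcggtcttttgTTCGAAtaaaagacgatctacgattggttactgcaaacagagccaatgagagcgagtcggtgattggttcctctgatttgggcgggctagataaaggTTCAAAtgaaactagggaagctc
Ube2c: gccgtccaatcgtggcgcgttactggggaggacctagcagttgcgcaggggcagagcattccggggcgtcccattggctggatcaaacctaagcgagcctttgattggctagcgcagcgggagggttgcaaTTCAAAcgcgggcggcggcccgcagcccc
Kif11: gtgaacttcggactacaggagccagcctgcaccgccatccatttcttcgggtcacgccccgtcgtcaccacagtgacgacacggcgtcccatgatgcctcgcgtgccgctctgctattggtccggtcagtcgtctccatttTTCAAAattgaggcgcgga
Bub1: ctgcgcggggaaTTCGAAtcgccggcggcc
Kif23: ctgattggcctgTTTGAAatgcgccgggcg

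In Mcm5 and Mcm6, 2 E2F matches on opposite strands overlap in a stretch of 12 bases, the one of Mcm5 being the reverse complement of the one of Mcm6. Mcm6 has another match nearer the start. Cdc6 has a single E2F match on the strand opposite to the gene. Cdk1 carries an E2F site and 2 CHRs, the nearer one 15 bases before the start. The stretch of Top2a holds 3 CHRs and those of Ube2c and Kif11 hold 1 each, within 30 bases of the start. Within each class, genes with and without the motif had similar medians of the log2 Vhl difference, deleted minus floxed. The 14 mitosis genes above the floor with a CHR had a median Vhl difference of 0.84 without and 0.78 with the Apc mutation, and the 5 without a CHR had 0.87 and 0.77. The 8 replication genes with an E2F site had medians of 0.30 and 0.66, and the 8 without had 0.27 and 0.72.

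**Figure D1:**
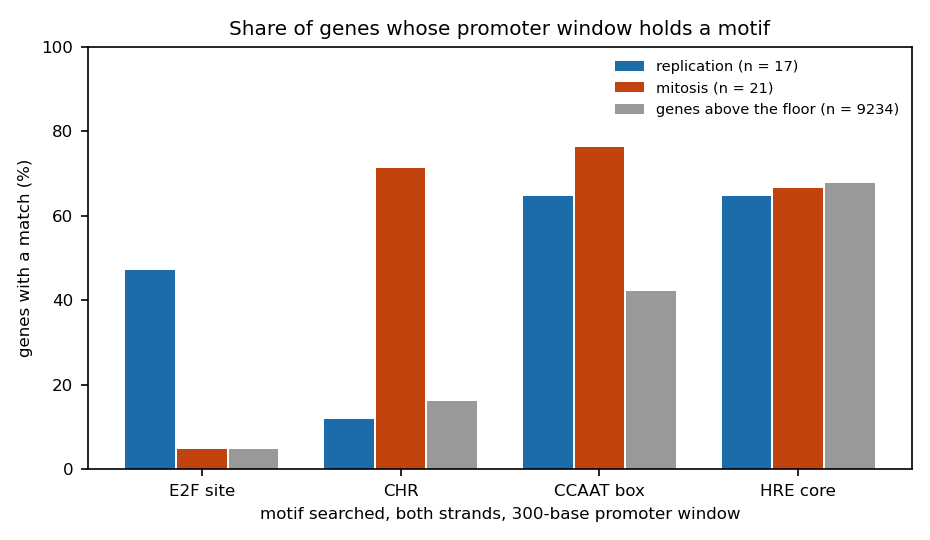
Bars give the share of genes, in percent, whose promoter window held at least 1 match to each motif, for replication genes, mitosis genes and all genes above the floor that have a window. The E2F site is most frequent in replication genes (47.1%), the CHR in mitosis genes (71.4%), and the hypoxia response core is at 64.7% to 67.7% in each group.

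In the array data the cell cycle genes were higher in the Vhl deleted arrays, in both Apc backgrounds. Without the Apc mutation, VhlΔIE exceeded VhlF/F for 44 of the 47 genes above the floor, against 46.3% of all genes above the floor. The median difference of the 47 was 0.67 on the log2 scale, and that of all genes was -0.02. At least 2-fold higher were 5 genes (Rrm2, Aurka, Bub1, Birc5 and Kif23), against 2.03% of all genes. None was at least 2-fold lower, against 1.29%. With the Apc mutation, VhlΔIE/Apcmin/+ exceeded VhlF/F/Apcmin/+ for 45 of 47 genes, against 46.1%, with a median of 0.74 beside -0.02 for all genes. At least 2-fold higher were 8 genes (Cdc6, Rrm2, Tk1, Cdk1, Aurka, Bub1, Aurkb and Kif23), against 2.58%, and none was at least 2-fold lower, against 1.48%. Gins1, at 0.9997, lay just outside the threshold there.

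These comparisons share no array. In both of them 43 of the 47 genes were higher, against 34.2% of all genes, and 4 were at least 2-fold higher, against 1.41%. None was at least 2-fold lower in both, against 0.709%. For 41 of the 47 genes both Vhl deleted arrays lay above both floxed arrays, against 27.3% of all genes. The exceptions were Cdt1, Pola1, Prim1, Ccne1, Cdkn1b and Cdkn3. Across the 47 genes, the differences in the 2 backgrounds correlated with r = 0.77 (Pearson) and rho = 0.66 (Spearman). Genes of 1 array share its RNA and are not independent replicates.

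**Figure D2:**
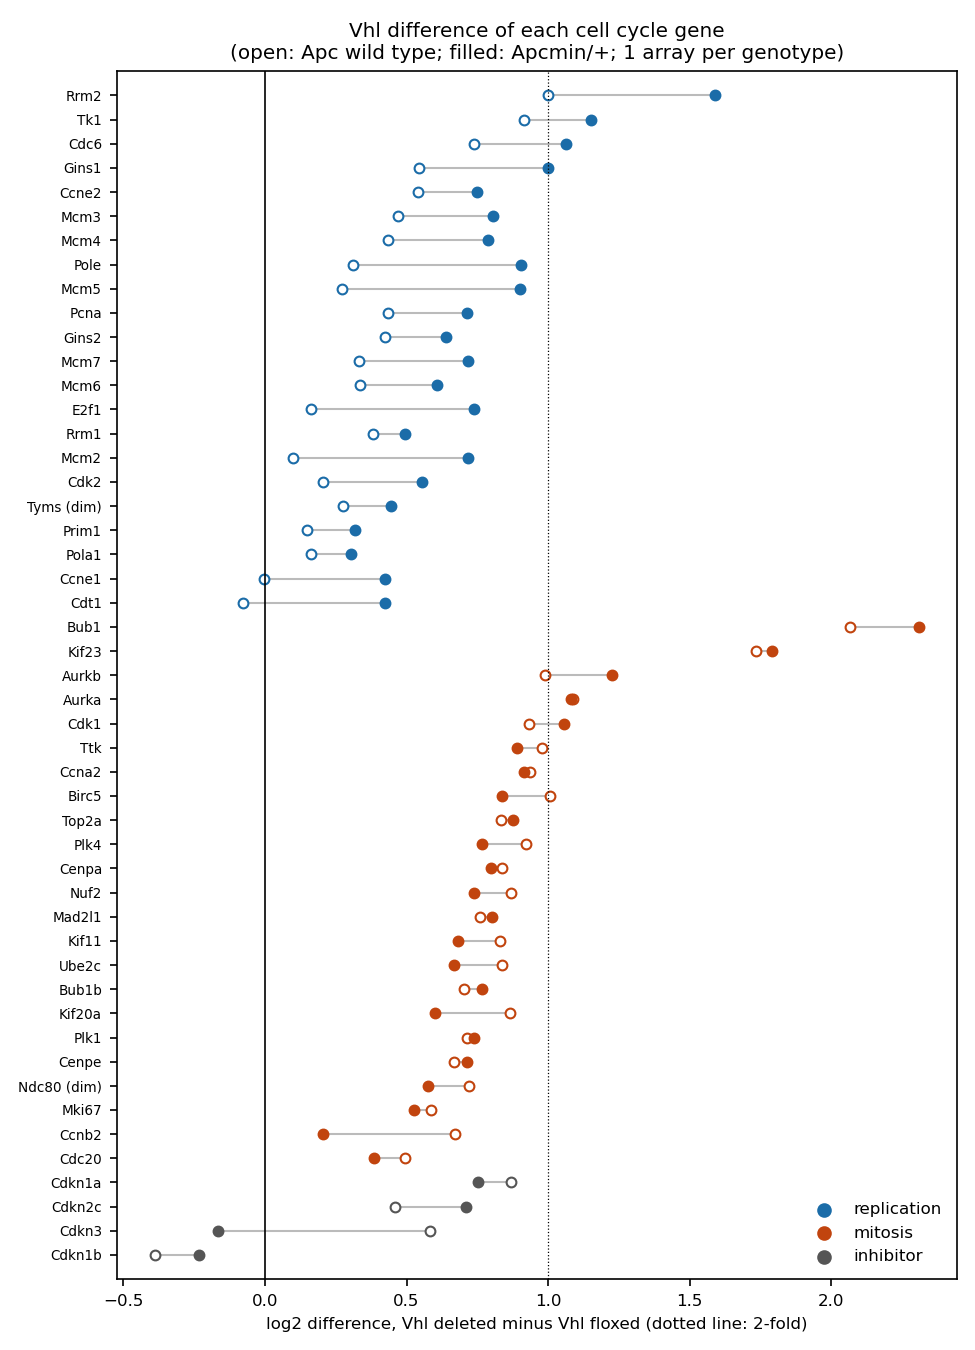
Each row is a gene, and the horizontal axis is the log2 difference between the Vhl deleted and the Vhl floxed array, with Apc wild type (open points) and with Apcmin/+ (filled points). Genes marked dim lie below the floor. In every replication row the filled point lies to the right of the open one, whereas mitosis rows show no common order, and Bub1 and Kif23 stand to the right of all others.

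Mitosis genes differed by more than replication genes when Apc was wild type. The 22 mitosis genes above the floor had a median Vhl difference of 0.85 and a range of 0.49 to 2.07, and the 21 replication genes a median of 0.34 and a range of -0.08 to 1.00. A 1.5-fold difference was reached by 21 of 22 mitosis genes and by 3 of 21 replication genes, against 5.73% of all genes. With the Apc mutation the classes came close, with medians of 0.78 and 0.72, and 19 of 22 and 15 of 21 genes at least 1.5-fold higher, against 6.64%. The mitosis median exceeded the replication median by 0.52 in the first comparison and by 0.07 in the second. This contrast was not tested, with 1 array per genotype.

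The helicase and its loading factors had a median difference of 0.38 without and 0.75 with the Apc mutation. Mcm5, a subunit of the hexamer, read 9.84 in VhlF/F, 10.12 in VhlΔIE, 9.18 in VhlF/F/Apcmin/+ and 10.08 in VhlΔIE/Apcmin/+. Its lowest array was thus VhlF/F/Apcmin/+, and the Vhl difference was 0.27 without and 0.90 with the Apc mutation, the widest gap between backgrounds of any replication gene. Mcm2, which carries histone-binding functions in the same hexamer, read 9.09, 9.19, 8.67 and 9.39 in that order of arrays. Its differences were 0.10 and 0.72, so VhlF/F and VhlΔIE were hardly apart. Mcm3, Mcm4, Mcm6 and Mcm7, the other subunits measured, had differences of 0.33 to 0.47 without and 0.61 to 0.81 with the Apc mutation. Cdc6, the loader, read 6.37, 7.10, 6.02 and 7.09, not far above the floor, with differences of 0.74 and 1.06. Cdt1, its partner in loading, read 9.46, 9.38, 9.12 and 9.54, and differed by -0.08 and 0.42. The other 2 Cdt1 probe sets, 1 of them dim, differed by 0.14 and 0.23 without the Apc mutation, the opposite sign. Gins1 and Gins2, which join the helicase when it starts to unwind, differed by 0.55 and 1.00 and by 0.42 and 0.64. Further probe sets above the floor departed from those used by over 0.3 for Gins2, at 0.97 without the Apc mutation, for Mcm7, at 1.06 with it, and for the dimmest of Mcm3, at -0.04 and 0.09.

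At the fork, Pcna, the clamp that holds the polymerase on DNA, was bright at 11.80, 12.23, 11.60 and 12.32, with differences of 0.43 and 0.71. Pole, the catalytic subunit of the leading-strand polymerase, read 6.73, 7.04, 6.30 and 7.20, and differed by 0.31 and 0.90. Pola1 and Prim1, which lay down the primers, had small differences, 0.16 and 0.30 for Pola1 and 0.15 and 0.32 for Prim1. For both of them the VhlF/F array stood above VhlΔIE/Apcmin/+, by 0.07, so the Vhl groups overlapped.

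The enzymes that supply nucleotides held the largest replication differences. Rrm2, the regulated subunit of ribonucleotide reductase, read 8.11 in VhlF/F, 9.11 in VhlΔIE, 7.38 in VhlF/F/Apcmin/+ and 8.97 in VhlΔIE/Apcmin/+. Both deleted arrays exceeded both floxed ones by at least 0.86, and the differences of 1.00 and 1.59 equal 2.00-fold and 3.01-fold. The 2 other probe sets of Rrm2 differed by 1.13 and 1.08 without and by 1.52 and 1.06 with the Apc mutation. Tk1, thymidine kinase, read 7.86, 8.78, 7.50 and 8.65, with differences of 0.91 and 1.15. Rrm1, the other subunit of the reductase, differed by 0.38 and 0.49. Tyms, thymidylate synthase, lay near background on all 4 of its probe sets and gives no usable difference.

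The 4 regulators of the G1/S transition had medians of 0.18 and 0.65. E2f1 read 6.10, 6.26, 5.70 and 6.44, close to the floor, and differed by 0.16 and 0.74. The second E2f1 probe set, at a mean of 5.98, differed by -0.02 and 0.49. Of the cyclins E, Ccne2 differed by 0.54 and 0.75, and Ccne1 by -0.003 and 0.42 with arrays at 7.40, 7.39, 7.19 and 7.61. The second Ccne1 probe set differed by 0.30 and 0.54, nearer to Ccne2. Their kinase Cdk2 differed by 0.21 and 0.55.

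Among mitotic kinases and cyclins, Cdk1, the kinase that drives entry into mitosis, read 8.58 in VhlF/F, 9.52 in VhlΔIE, 8.34 in VhlF/F/Apcmin/+ and 9.40 in VhlΔIE/Apcmin/+. The deleted arrays lay at least 0.82 above the floxed arrays, with differences of 0.93 and 1.06. Aurka, the centrosomal Aurora kinase, read 7.18, 8.27, 6.95 and 8.04 and differed by 1.09 and 1.08. Its other probe set lay at background. Ccna2, the cyclin of S phase and G2, differed by 0.94 and 0.92, and Plk1 by 0.71 and 0.74. Ccnb2, a B-type cyclin, departed from the rest, at 8.55, 9.22, 8.70 and 8.91. It differed by 0.67 without and only 0.21 with the Apc mutation. On the probe sets used it was the single mitosis gene higher in VhlF/F/Apcmin/+ than in VhlF/F, by 0.16. Further probe sets above the floor of Cdc20, Bub1b and Aurkb were also higher there, by 0.04 to 0.22.

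Bub1, the kinase of the spindle checkpoint that docks on kinetochores, had the largest difference of the 49 genes. It read 7.42 in VhlF/F, 9.48 in VhlΔIE, 6.88 in VhlF/F/Apcmin/+ and 9.19 in VhlΔIE/Apcmin/+. The Vhl groups were separated by 1.78, and the differences of 2.07 and 2.31 equal 4.18-fold and 4.96-fold. Its second, dimmer probe set differed by 2.10 and 1.54. Other checkpoint genes did not share this size. Bub1b, the BubR1 subunit of the checkpoint complex, differed by 0.70 and 0.77, Mad2l1 by 0.76 and 0.80, and Ttk, the kinase that starts checkpoint signalling, by 0.98 and 0.89. Cdc20 and Ube2c act with the anaphase-promoting complex, a ubiquitin ligase unrelated to the Apc gene. They differed by 0.49 and 0.38 and by 0.84 and 0.67.

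Kif23, the motor of the central spindle that is needed for cytokinesis, followed Bub1 in size. It read 7.57, 9.30, 7.36 and 9.15 in the order VhlF/F, VhlΔIE, VhlF/F/Apcmin/+ and VhlΔIE/Apcmin/+. The groups were separated by 1.59, with differences of 1.74 and 1.79, or 3.33-fold and 3.46-fold. Its 2 other probe sets, dim in most arrays, differed by 2.61 and 1.42 without and by 1.78 and 0.96 with the Apc mutation. Kif11, the motor that pushes the spindle poles apart, differed by 0.83 and 0.68, and Kif20a by 0.86 and 0.60. Plk4, the kinase of centriole duplication, differed by 0.92 and 0.77.

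Among genes of the kinetochore and of the chromosomal passenger complex, Cenpa, the centromeric histone, Cenpe, a kinetochore motor, Nuf2, and the dim Ndc80, which binds microtubules together with Nuf2, differed by 0.67 to 0.87 without and 0.58 to 0.80 with the Apc mutation. Aurkb, the kinase of the passenger complex, read 6.61, 7.60, 6.04 and 7.27, with differences of 0.99 and 1.23. Its second probe set differed by 0.84 and 0.59, so the 2-fold difference with the Apc mutation rests on 1 probe set, and the mean over probe sets was 0.91. Its partner Birc5, survivin, differed by 1.01 and 0.84. Top2a, which untangles chromosomes, differed by 0.83 and 0.88. Mki67, the antigen by which dividing cells are commonly counted, was bright at 9.95, 10.53, 9.70 and 10.23 and differed by 0.59 and 0.53. A further probe set lay lower for Top2a, at 0.40 without the Apc mutation, for Bub1b, at 0.14 and 0.39, and for Cdc20, at 0.05 with the mutation. Only Cdc20 and Ccnb2 had a smaller mean Vhl difference than Mki67 among the mitosis genes.

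The 4 inhibitor genes had no common direction. Cdkn1a, the p21 inhibitor induced by p53 and on exit from the cycle, was bright at 12.01, 12.88, 12.07 and 12.83 and higher in both deleted arrays, by 0.87 and 0.75. Its second probe set differed by 0.98 and 0.90. Cdkn1b, the p27 inhibitor, read 9.86, 9.47, 9.55 and 9.32, and differed by -0.39 and -0.23. Its second probe set differed by -0.02 and 0.01, so the direction rests on 1 probe set. Cdkn2c, p18, differed by 0.46 and 0.71. Cdkn3, a phosphatase of Cdk1 and Cdk2 that is itself periodic, read 6.57, 7.16, 6.96 and 6.80, with differences of 0.58 and -0.16 that have opposite signs.

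The Apc mutation went with small differences, and which way they pointed depended on the class and on Vhl. Against VhlF/F, VhlF/F/Apcmin/+ was lower for all 21 replication genes above the floor, with a median of -0.35, and for 21 of 22 mitosis genes, with a median of -0.22. The median of all genes was 0.00. In all, 3 of 47 genes were higher, against 50.8% of all genes. None was at least 2-fold apart, against 0.105% higher and 0.665% lower among all genes. Rrm2 at -0.73 and Mcm5 at -0.66 were the lowest. These values use 1 probe set per gene. A further probe set above the floor was higher for Gins2, at 0.33, Bub1b, at 0.22, and Aurkb, at 0.04. Both others of Cdc20 were higher, at 0.17 and 0.17, and the dimmest of Mcm3 stood at 0.00. All remaining further probe sets of both classes above the floor were lower, that of Mcm4 by more than 2-fold, at -1.07.

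Against VhlΔIE, VhlΔIE/Apcmin/+ was lower for all 22 mitosis genes, with a median of -0.25 and a range of -0.62 for Kif11 to -0.12 for Cdk1. Of the further probe sets of mitosis genes above the floor, only that of Bub1b at 0.46 was higher. Replication genes lay on both sides, 12 of 21 being higher, with a median of 0.04 and a range of -0.23 for Pola1 to 0.22 for Ccne1. That count depends on the probe set. Among the 12, another above the floor was lower for Mcm4 at -0.60, Mcm6 at -0.29, Mcm7 at -0.12, Cdt1 at -0.02 and Ccne1 at -0.01. Among the rest, another was higher for Mcm5 at 0.15, and others of Mcm3 were higher at 0.07 to 0.14. Over both classes and the inhibitors 12 of 47 genes were higher, against 50.4%, and none was at least 2-fold apart, against 0.149% higher and 0.105% lower. The contrast with the floxed arrays was thus in the replication genes. Mcm2 differed by -0.42 with floxed and 0.20 with deleted Vhl, Pole by -0.43 and 0.16, and E2f1 by -0.40 and 0.18. Without replicates these opposite signs were not tested.

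**Figure D3:**
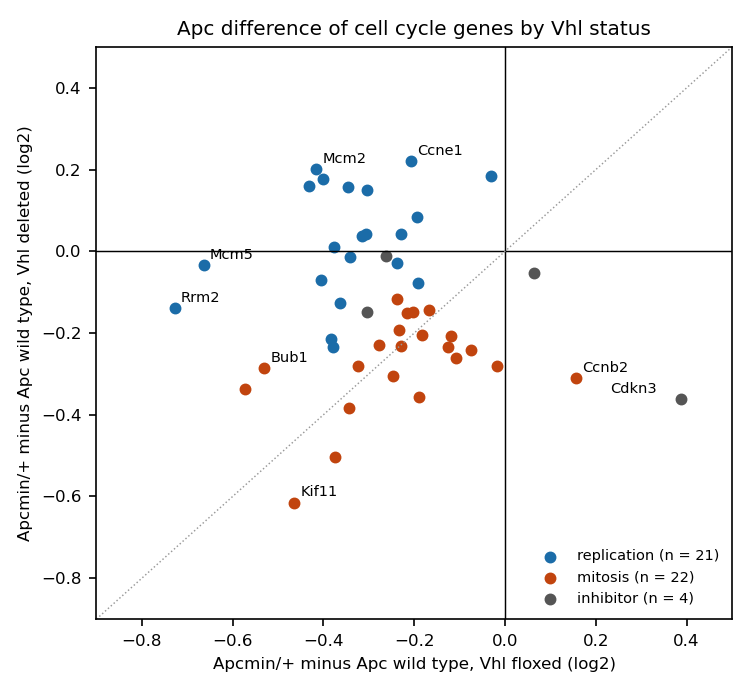
Each point is a gene above the floor, with its Apc difference between the floxed arrays on the horizontal axis and between the Vhl deleted arrays on the vertical axis, in log2 units. All replication genes but 2, Pola1 and Prim1, lie above -0.2 on the vertical axis although all lie left of 0, while mitosis genes lie below 0 on the vertical axis and scatter around the dotted line of equal difference.

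Put as array ranks, the 2 classes shared their lowest array but not their highest. VhlF/F/Apcmin/+ was the lowest array for all 21 replication genes and 21 of 22 mitosis genes, against 24.5% of all genes. VhlΔIE was the highest for all 22 mitosis genes and for 9 replication genes, against 22.1%, and VhlΔIE/Apcmin/+ was the highest for the other 12 replication genes. Some further probe sets above the floor had another lowest array, for Gins2, Mcm3, Cdc20, Bub1b and Aurkb. Some had another highest array, for Mcm3, Mcm4, Mcm5, Mcm6, Mcm7, Cdt1, Ccne1 and Bub1b. The Vhl difference was larger with the Apc mutation than without it for all 21 replication genes and for 9 of 22 mitosis genes, against 48% of all genes. A further probe set was smaller with the mutation for Gins2, at 0.97 without and 0.78 with it. The same held for Rrm1, at 0.53 and 0.41, and Rrm2, at 1.08 and 1.06. All remaining further probe sets of replication genes above the floor were larger with it. The median change of the Vhl difference between backgrounds was 0.35 for replication and -0.03 for mitosis genes. For each gene this change equals, by arithmetic, the change of the Apc difference between floxed and deleted Vhl, so these are 1 contrast. All genes were read from the same 4 arrays, so the number of genes is not a number of independent observations.

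**Figure D4:**
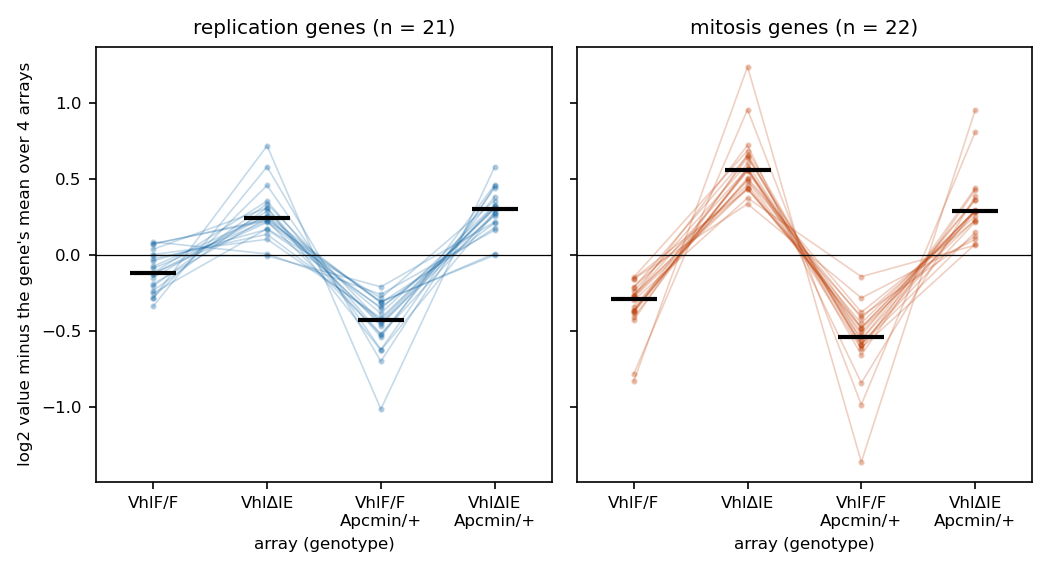
The vertical axis is the log2 value minus the gene's own mean over the 4 arrays, thin lines join the values of 1 gene, and black bars are class medians. Replication medians are -0.12, 0.24, -0.43 and 0.31 and mitosis medians -0.29, 0.56, -0.54 and 0.29, in the order of arrays plotted.

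Further genes of the same processes, none among the 50, showed the same order of classes. Of 43 other replication genes above the floor, 36 were higher in VhlΔIE than in VhlF/F and 39 in VhlΔIE/Apcmin/+ than in VhlF/F/Apcmin/+, against 46.3% and 46.1% of all genes, with medians of 0.28 and 0.45. Prim2, the partner of Prim1, was highest by mean difference at 1.19 and 1.15, unlike Prim1 itself, followed by Cdc7, the kinase that fires origins, at 0.72 and 1.48, and Clspn at 0.80 and 1.22. Orc3 and Orc5, subunits of the origin recognition complex, and Dctpp1 were lowest at -0.38 to -0.06. Of 53 other mitosis genes, 52 and 51 were higher, with medians of 0.70 and 0.59. Cep55, needed for the final cut between daughter cells, led at 1.22 and 1.15, followed by Shcbp1 at 1.15 and 0.91 and Cenpi at 0.91 and 1.09. Cdc25b, Troap and Zwint lay at the other end, at -0.07 to 0.14. The Vhl difference was larger with the Apc mutation for 33 of the 43 replication genes and 24 of the 53 mitosis genes, against 48% of all genes.

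Other G1 regulators and targets of p53 had medians nearer to that of all genes. Of 23 other G1 regulators 13 and 16 were higher, against 46.3% and 46.1% of all genes, with medians of 0.02 and 0.08. E2f2, an activating E2F, read 8.18, 9.24, 7.01 and 8.54 and differed by 1.06 and 1.53, more than E2f1, and E2f8, a repressive E2F that is itself periodic, by 0.50 and 1.14. Skp2, which marks p27 for degradation, differed by 0.49 and 0.62, while Ccnd2, Tfdp2 and Cdk6 differed by -0.40 to -0.08. Targets of p53 had medians of 0.02 and 0.02, with 8 of 16 higher in each background, close to those shares. Trp53inp1 at 0.51 and 0.45, Btg2 at 0.45 and 0.48 and Gadd45b at 0.20 and 0.65 were the highest, and Plk3 at -0.62 and -1.03, Gadd45a at -0.28 and -0.17 and Zmat3 at -0.31 and -0.11 the lowest. Of 14 checkpoint and repair genes 10 and 12 were higher, above the same shares, with medians of 0.31 and 0.36. The repair gene Brca1 led at 0.81 and 1.10, with Rad51ap1 at 0.66 and 0.99 and Chek1 at 0.54 and 0.91. Wee1, the kinase that holds Cdk1 inactive, was lower in both backgrounds at -0.58 and -0.50. Atm at -0.15 and -0.23 and Ung at -0.36 and 0.14 completed the lowest of that list.

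**Figure D5:**
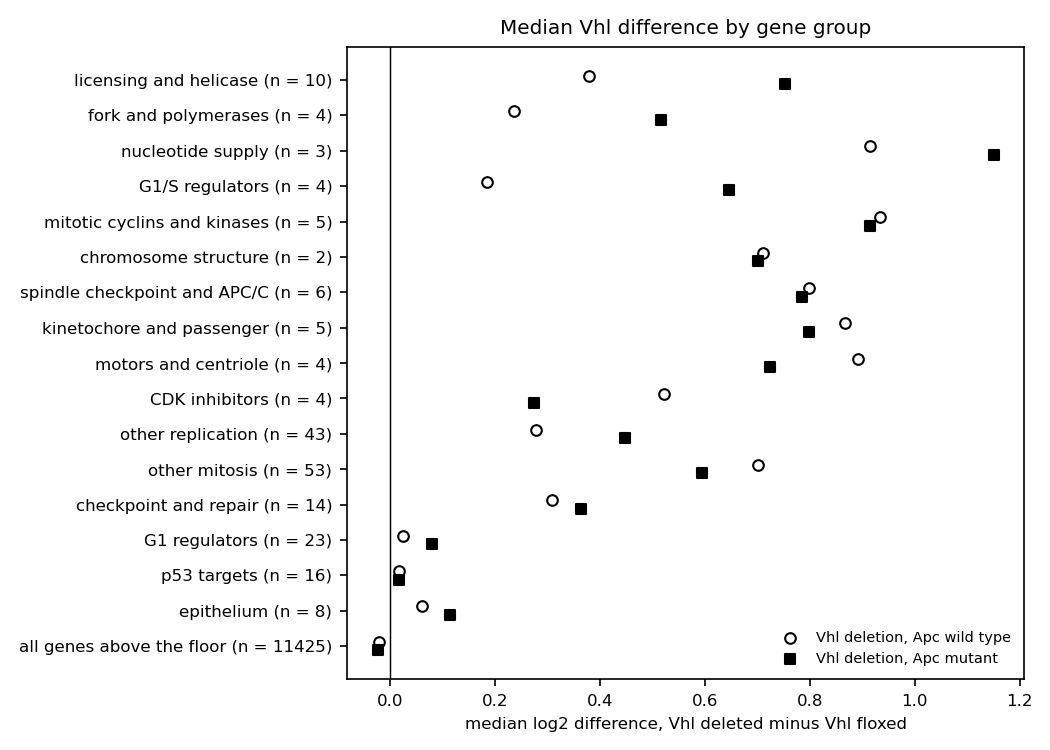
Points are medians of the log2 difference, Vhl deleted minus floxed, for each group of genes above the floor, open without and filled with the Apc mutation. The 4 top rows are replication genes and the 5 rows below them mitosis genes. Median differences of all genes lie at -0.02, those of p53 targets at 0.02, and those of the other mitosis genes at 0.70 and 0.59.

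Vhl itself read 8.40, 7.03, 8.17 and 6.56, lower in both arrays labelled as deleted. Other features of the samples moved with Vhl status, and their part in the cell cycle differences was not tested. Xist read 11.37 and 11.83 in the floxed and 5.58 and 6.25 in the deleted arrays. A difference in the sex of the mice behind the arrays therefore cannot be told apart from Vhl deletion. Y-linked genes, named after their values were seen, did not mirror Xist. Eif2s3y read 8.58, 8.78, 7.27 and 8.80, Kdm5d 8.09, 8.03, 6.61 and 7.85, and Uty 7.54, 7.87, 6.35 and 7.74. All were above the floor in every array, near the deleted arrays in VhlF/F and lowest in VhlF/F/Apcmin/+. High Xist and Y-linked values were thus both present in VhlF/F. Endothelial markers were higher, 9 of 9 above the floor in both backgrounds, with medians of 1.18 and 0.97. Their summed level in VhlΔIE, VhlF/F/Apcmin/+ and VhlΔIE/Apcmin/+ was 240%, 104% and 231% of that in VhlF/F, and Pecam1 read 6.51, 7.39, 6.84 and 7.30. The summed level of macrophage and dendritic cell markers was 147%, 113% and 132%, that of B and plasma cell markers 128%, 89.7% and 121%, and that of smooth muscle markers 73.5%, 92.3% and 69.4%. The B and plasma cell sum is carried by Jchain and Xbp1, and 4 of the 6 markers above the floor were lower with Vhl deletion when Apc was mutant, with a median of -0.16. That of fibroblast markers was 120%, 125% and 114%. Of 9 measured T and NK cell markers at least 5 lay under 6 in each array. Epithelial markers were level, at 103%, 96.2% and 103% of VhlF/F, and stem cell markers at 79.6%, 77.1% and 111%, a sum made up mostly of Prom1. Of 7 stem cell markers above the floor 5 were lower with Vhl deletion without and 4 with the Apc mutation, with medians of -0.64 and -0.33. Sox9 differed by -1.22 and -1.18, whereas Lgr5 went the other way, at 7.51, 10.05, 7.71 and 10.25. Alb, a hepatocyte gene, read 11.53 in VhlF/F and at most 7.25 elsewhere, and the summed hepatocyte level was 31.3%, 52.8% and 30.5%. That sum covers 4 markers above the floor, and outside VhlF/F it is carried by Ttr, at 11.66, 11.01, 11.89 and 10.99. Serpina1c, Tdo2, Bhmt and Mup3, left out by the floor, read 6.83 to 10.45 in VhlF/F and 3.06 to 4.36 in the other arrays. Dbp, an output gene of the circadian clock, read 9.37, 5.86, 10.74 and 8.05, and the summed clock gene level was 61.7%, 142% and 77.6%.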

How the data were processed

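The values are log2 expression as deposited by the authors, who used the affy package and RMA, per the submitters' processing notes, of which no version is given. RMA corrects background, equalises the distributions and summarises probes. The 4 array medians were 6.05 to 6.07, so a shift of all transcripts would not be seen, and dim genes understate their fold. Symbols came from GEO's platform annotation (34958 probe sets with 1 symbol, 932 with several, 9211 unlisted). Entrez identifiers of the 49 genes were all in RefSeq's GRCm38.p6 table, with 0 symbols changed. The cell cycle genes, the lists and the motifs were chosen with earlier results of these data known. All 50 were to be named, with Vhl, a few markers, and of each other pathway list the 3 genes with the highest and the 3 with the lowest mean Vhl difference. The deposited values were subtracted, counted at 2-fold and checked on simulated data with pandas 2.3.3 and numpy 2.4.6 under Python 3.11.15. The cyclic loess alternative came from limma 3.58.1 in R 4.3.3, and figures from matplotlib 3.10.9. The number of arrays limits precision.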

Additional observations from a re-analysis of the deposited data

Results flagged for a closer look

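For 8 genes the sign of a difference was opposite in the 2 backgrounds, with at least 0.1 on each side, a limit set after the values had been seen. This rests on single arrays and was not tested. The Apc difference turned from lower with floxed Vhl to higher with deleted Vhl for 6 replication genes, with a change of 0.62 for Mcm2, 0.50 for Cdt1, 0.45 for Gins1, 0.59 for Pole, 0.43 for Ccne1 and 0.58 for E2f1. It turned the other way for Ccnb2, with a change of -0.47, and for Cdkn3, with a change of -0.75. The second probe sets above the floor of Cdt1, at -0.14 and -0.02, and of Ccne1, at -0.25 and -0.01, showed no turn. That of Mcm2, at -0.19 and 0.07, did not reach 0.1 on both sides. For Cdkn3 the Vhl difference also had opposite signs, 0.58 without and -0.16 with the Apc mutation. Its change of -0.75 equals that of the Apc difference by arithmetic and is not a further observation.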

How the results depend on the processing

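Compared were 188 values (the class medians, the gap between classes and the counts of genes past 2-fold, over 4 comparisons and the alternatives). Of these, 182 stayed alike. Medians and gaps counted as alike when they kept their sign and moved by at most 0.2 on the log2 scale. Counts did so when they stayed 0 or changed by at most 1.5 times. These limits were set by hand for want of replicates. All 108 medians and gaps between medians were among the 182, and 0 changed sign. Most of the counts were 0 in the main setting, so their agreement says little. The alternatives were no floor, a floor in any 1 array, a floor of 7, values under 6 raised to 6, and the mean over probe sets. Another left out probe sets whose identifier ends in _a_at, _s_at or _x_at. Further ones were cyclic loess, centring on the median, and leaving out Ccna2, Top2a, Mki67 and Plk4. Cyclic loess and centring acted on values whose distributions RMA had already equalised, which left them little to change. With the mean over probe sets, 3 genes without and 5 with the Apc mutation were at least 2-fold higher with Vhl deletion, of 41 genes above the floor. At 1.5-fold these counts were 25 and 36 of 47, against 5.73% and 6.64% of all genes. For the Apc mutation 2 genes were lower with floxed and 1 with deleted Vhl, against 1.98% and 0.691%. Of the single genes, Aurka lay at 0.83 and 0.70 and Aurkb at 0.91 with the Apc mutation under the mean over probe sets, no longer 2-fold. Kif23 left both counts for another reason, its mean level over probe sets lying below the floor. Of 22 genes with several probe sets above the floor, those of Ccne1, Cdt1 and Mcm3 disagreed in sign without the Apc mutation, and those of Cdkn1b with it. No paired analysis was possible because each genotype has 1 array. A fit of the Vhl difference over both Apc backgrounds, with their disagreement as its error, was not run.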
